A study of Macaca mulatta with 9 samples.

Results

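HAS2, TNFAIP6, AREG and RUNX1 are 4 genes that the surge of luteinising hormone (LH) is known to switch on in the ovarian follicle before ovulation. They are 4 of the 14132 genes that the array annotation named alone on at least 1 probe set, and were measured by 12 of the 52865 probe sets on rhesus macaque arrays: 2 for HAS2, 2 for TNFAIP6, 1 for AREG and 7 for RUNX1. The genes were chosen by their higher signals in WSD than in control follicles, so that difference is described below and not tested. The samples were small antral follicles (SAFs), follicles with a fluid-filled cavity, dissected from the ovaries of young adult macaques at or close to menses, early in the follicular phase. Females of the WSD+T group ate a Western-style diet and had chronically raised testosterone, an androgen (chronic T in the labels). Females of the WSD group ate that diet alone, and control females ate a standard diet. Each group had 3 arrays, labelled as biological replicates. Each array was made from the healthy-looking SAFs of an ovary, 3.7 ± 0.3 of them by the labels (kind of error not given), lysed whole, so granulosa cells, follicle wall, cumulus cells and oocyte entered each array together. In such bulk samples fewer cells of a type and less RNA per cell cannot be told apart.

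In an ovulatory follicle the LH signal reaches the cumulus cells, the granulosa cells around the oocyte, through EGF-like ligands. AREG encodes amphiregulin, a membrane-bound ligand that is shed and then activates the EGF receptor. HAS2 encodes the synthase that makes hyaluronan, the long sugar chain of the expanding cumulus matrix. TNFAIP6 encodes TSG-6, which links protein chains to hyaluronan and so stabilises that matrix. RUNX1 encodes a DNA-binding transcription factor that works with the partner CBFB and is best known from blood cell development. In rodents it is also induced in granulosa cells by the ovulatory signal. Small antral follicles in the early follicular phase have not yet been exposed to that surge.

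The arrays stood apart in several ways that bear on what follows. Signals are linear MAS5 values, scaled by the authors so that the mean without the outer 2% was equal on all arrays. Replicates of WSD+T were closest to each other (mean within-group variance of log2 values 0.0411, against 0.330 in WSD and 0.152 in control), and replicates 1 and 3 of WSD+T were the most alike pair (Pearson r = 0.993 across tested probe sets, with 0 identical values). Of the granulosa cell markers, 9 of 11 were named on the array. Their summed signal was 11497 to 13445 in WSD+T, 9185 to 14752 in WSD and 14686 to 19461 in control, and none was at 0 on any array. Myeloid markers had a wide range: the 14 of 17 named on the array summed to 16700.4 to 18853 in WSD+T, 982 to 25824 in WSD and 2041 to 10539 in control, none was at 0, and none of the 13 tested was called in any comparison, with 0 to 3 at an unadjusted p under 0.05. Called here means an adjusted p under 0.05 in limma, a linear model per probe set that shares information on the spread between probe sets. Neutrophil and endothelial markers also had a wide spread in WSD (summed signal 456 to 724 and 2052 to 2367 in WSD+T, 25.0 to 1770.3 and 523 to 3852 in WSD, 39.1 to 282 and 1093 to 1713 in control). The array with the lowest myeloid sum was WSD replicate 3.

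HAS2 had signals of 87.9, 56.4 and 307 in WSD+T replicates 1 to 3, of 1213, 284 and 702 in WSD, and of 145, 98.5 and 26.5 in control. All 3 WSD arrays were above all control arrays, whereas WSD+T overlapped with control and, through its replicate 3, with WSD. The second HAS2 probe set read 35.3, 31.3 and 78.4 in WSD+T, 427, 96.2 and 154 in WSD, and 59.5, 39.1 and 21.0 in control. It followed the first over the 9 arrays (Pearson r = 0.97, both from the same RNA). Group means of the first probe set were 151 ± 137 in WSD+T, 733 ± 466 in WSD and 90.0 ± 59.6 in control (SD, n = 3 each).

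TNFAIP6 read 191, 133 and 241 in WSD+T, 515, 970.1 and 615 in WSD, and 218, 54.9 and 56.6 in control on its brighter probe set. Every WSD array exceeded every other array, while WSD+T and control overlapped because control replicate 1 lay within the WSD+T range. The other probe set read 71.4, 41.1 and 106 in WSD+T, 263, 557 and 269 in WSD, and 100.4, 34.1 and 31.1 in control, with the same grouping of arrays (r = 0.98 between the probe sets). Means of the brighter probe set were 188 ± 54.2 in WSD+T, 699.9 ± 239 in WSD and 109.8 ± 93.7 in control.

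AREG, with a single probe set, read 58.2, 33.1 and 70.8 in WSD+T, 115, 197 and 165 in WSD, and 31.4, 12.7 and 17.8 in control. The groups were fully ordered, with WSD above WSD+T and WSD+T above control and no overlap between any of them. The gap between WSD+T replicate 2 and control replicate 1 was small, however, and 2 of the 3 control arrays were under the signal of 21.2 used as the filter for low values. Means were 54.0 ± 19.2 in WSD+T, 159 ± 41.5 in WSD and 20.6 ± 9.68 in control.

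RUNX1 was arranged differently. Its brightest probe set read 2775, 2348 and 2646 in WSD+T, 3101, 2320.0 and 3679 in WSD, and 1394, 1636 and 1415 in control. WSD+T and WSD overlapped, and both lay above all control arrays. Means were 2589 ± 219 in WSD+T, 3033 ± 682 in WSD and 1482 ± 134 in control.

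**Figure D1:**
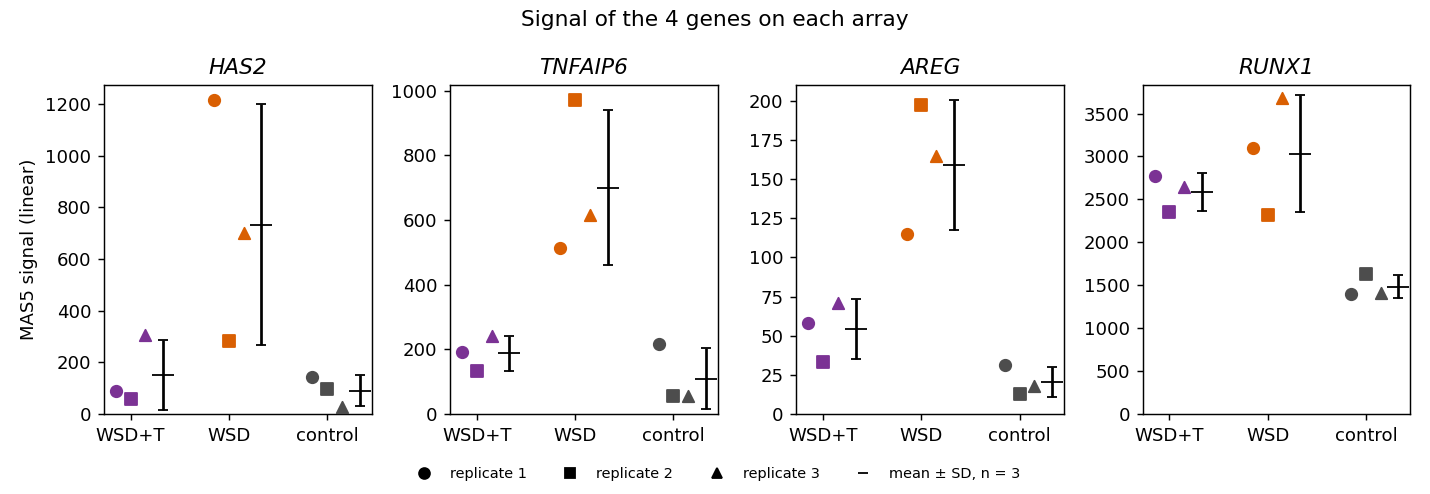
MAS5 signal (linear axis from 0) of the highest-signal probe set of HAS2, TNFAIP6, AREG and RUNX1 on each array, with the group mean and SD (n = 3) beside the points. Marker shape gives the replicate number, which the labels do not say links arrays across groups. HAS2, TNFAIP6 and AREG were highest in WSD, whereas RUNX1 was above control in both WSD+T and WSD.

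The other 6 RUNX1 probe sets were far dimmer and did not give 1 common picture. Of these, 3 passed the filter. One of them, MmugDNA.30561.1.S1_at, read 38.0, 44.2 and 49.5 in WSD+T, 105, 30.6 and 51.3 in WSD, and 24.2, 15.2 and 28.9 in control, the same order of groups as the brightest. The probe set MmugDNA.30561.1.S1_s_at instead averaged 19.8 ± 2.63 in WSD+T, 43.0 ± 13.4 in WSD and 14.2 ± 3.82 in control, so its WSD+T values lay near control. For MmugDNA.13604.1.S1_s_at the means were 34.2 ± 9.94 in WSD+T, 42.8 ± 8.63 in WSD and 21.1 ± 4.06 in control. The 3 probe sets under the filter had mean signals of 2.34 to 7.80 in WSD+T, 1.40 to 22.6 in WSD and 1.81 to 8.98 in control, and their groups overlapped in every comparison. Probe sets of 1 gene can read different transcripts, and which transcripts these read was not tested.

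Set on the log2 scale after adding 16 to each signal, WSD exceeded control by 2.80 (SE 0.72) for HAS2, 2.70 (SE 0.47) for TNFAIP6, 2.26 (SE 0.28) for AREG and 1.00 (SE 0.19) for RUNX1 on the brightest probe sets. All 9 probe sets past the filter were higher in WSD with no overlap with control. Over all 26383 probe sets tested, 10.6% had WSD wholly above control, and limma called 14.5% in either direction and 4.78% as higher in WSD. The 4 genes were chosen for this difference, so nothing is read from the count. The 12 probe sets included 11 with a higher mean in WSD, the exception being the dimmest RUNX1 probe set.

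Follicles of WSD+T females were then set against control follicles, to ask whether these genes differed under the diet together with raised androgen. None of the 4 genes passed limma at an adjusted p of 0.05 on its brightest probe set, and neither did any other of the 9 tested probe sets, of which 2 had an unadjusted p under 0.05 in the same fit. All 9 means were higher in WSD+T, with a median log2 difference of 0.54 against -0.01 over all tested probe sets. RUNX1 came nearest, 0.80 higher (95% interval 0.38 to 1.22, limma's adjusted p = 0.0677), followed by AREG, 0.93 higher (0.28 to 1.57, adjusted p = 0.135). TNFAIP6 was 0.91 higher (-0.16 to 1.97, adjusted p = 0.326) and HAS2 0.54 higher (-1.10 to 2.19, adjusted p = 0.732). The interval of HAS2 runs from lower in WSD+T to several-fold higher, so these arrays leave its difference undetermined. Only 1.97% of all tested probe sets were called in this comparison (0.542% as higher and 1.43% as lower in WSD+T). WSD+T lay wholly above control in 18.8% of all tested probe sets and wholly below in 18%, against 3 and 0 of the 9 probe sets of these genes. These p-values share the control arrays with the comparison behind the choice of genes, which tends to favour a higher value in WSD+T.

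The call for RUNX1 turned on single arrays and on how the spread was estimated. It passed without WSD replicate 2 (adjusted p = 0.0215) or WSD replicate 3 (0.0294), with array weights estimated per group (0.0119), and in a fit to the 6 WSD+T and control arrays alone (0.0147), and the highest adjusted p without 1 array was 0.269 (without WSD+T replicate 1). With the median over all 7 RUNX1 probe sets in place of the brightest, the difference was 0.19 (adjusted p = 0.559). That median had signals of 16.9 to 21.9 in WSD+T and 13.4 to 16.9 in control, near or under the filter. On most arrays it was the value of the dim MmugDNA.30561.1.S1_s_at itself. Adding 16 to each signal understates changes at such signals, so nothing is read from the 0.19 about the brightest probe set. The direction for HAS2 also turned on single arrays: the log2 difference was -0.089 without WSD+T replicate 3 and -0.013 without control replicate 3.

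WSD+T was compared with WSD to ask how follicles differed when androgen was raised on the same diet. AREG was lower in WSD+T by a log2 difference of -1.33 (95% interval -1.98 to -0.69, limma's adjusted p = 0.0472), and was the only 1 of the 4 genes called on its brightest probe set. TNFAIP6 had log2 differences of -1.79 (-2.86 to -0.73, adjusted p = 0.0753) on the brighter probe set and -2.07 (-3.08 to -1.07, adjusted p = 0.0472) on the dimmer. HAS2 had -2.26 (-3.90 to -0.61, adjusted p = 0.124) and -1.74 (-2.89 to -0.58, adjusted p = 0.0975) on its probe sets. RUNX1 had -0.21 (-0.63 to 0.22, adjusted p = 0.594) on its brightest probe set, and -0.69 (-1.14 to -0.25, adjusted p = 0.0898) on MmugDNA.30561.1.S1_s_at. The median over all 7 RUNX1 probe sets was -0.56 (adjusted p = 0.0903). On most arrays that median is the value of MmugDNA.30561.1.S1_s_at itself. It is thus not a separate reading, and the limit given below for that probe set applies to it. The remaining RUNX1 probe sets past the filter, MmugDNA.30561.1.S1_at and MmugDNA.13604.1.S1_s_at, had differences close to the brightest (-0.28 and -0.24, adjusted p = 0.683 and 0.535). Of all tested probe sets 2.99% were called here, 2.04% as higher and 0.948% as lower in WSD+T, against 2 of the 9 probe sets of these genes, both lower. WSD+T lay wholly below WSD in 10.9% of all tested probe sets and in 5 of the 9. One of these 5, RUNX1 MmugDNA.30561.1.S1_s_at, passed the filter only through its WSD arrays (mean log2 value 5.16 in WSD+T, 5.85 in WSD and 4.91 in control, against a limit of 5.22), so a lower value in WSD+T was built into its inclusion.

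These differences rest on the WSD arrays whose high values led to the choice of genes, and such a choice by itself favours lower values in WSD+T, so the p-values describe the fit and are not independent evidence. AREG did not pass in any of the 9 fits that left out 1 array (adjusted p = 0.0567 without control replicate 1 up to 0.174 without WSD+T replicate 2). The dimmer TNFAIP6 probe set passed only without WSD replicate 3 or control replicate 1, and its adjusted p reached 0.181 without WSD+T replicate 2. The direction held for HAS2, TNFAIP6 and AREG in all of those fits. With WSD+T replicates 1 and 3 averaged into 1 sample, adjusted p was 0.135 for AREG and 0.140 for the dimmer TNFAIP6 probe set.

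Expressed as a share of the WSD-minus-control difference on the log2 scale, the WSD+T-minus-control difference was 19.4% for HAS2, 33.5% for TNFAIP6, 41.0% for AREG and 79.6% for RUNX1 on the brightest probe sets. The genes were chosen by the difference that divides here, and high WSD values favoured by that choice lower the share. The remaining RUNX1 probe sets past the filter gave 69.7%, 63.7% and 26.6%. The last, for the dim MmugDNA.30561.1.S1_s_at, lay within the range of the other 3 genes. That probe set passed the filter only through its WSD arrays, which also favours a low share, so nothing is read from its place. The difference between RUNX1 and the other genes in this share was not tested.

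**Figure D2:**
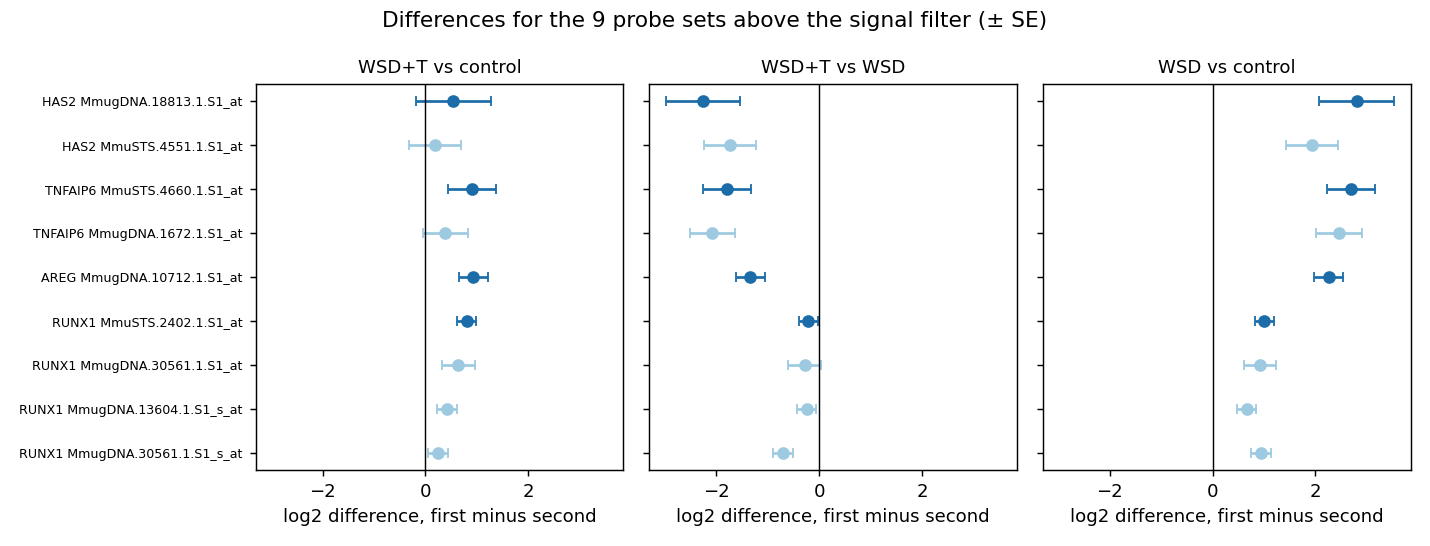
Log2 difference (first group minus second, on log2 of signal plus 16) with its SE from limma for the 9 probe sets above the signal filter, dark for the highest-signal probe set of each gene and pale for the others. HAS2, TNFAIP6 and AREG sat between -1.33 and -2.26 in WSD+T vs WSD, while the brightest RUNX1 probe set sat at -0.21.

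The myeloid sum differed widely between arrays without any marker being called, and RUNX1 and TNFAIP6 are also expressed by leukocytes, so each gene was set beside the myeloid sum of its array. On WSD replicate 3, whose myeloid sum was the lowest of the 9 arrays (982), HAS2 read 702, TNFAIP6 615, AREG 165 and RUNX1 3679. These lay above every control array, as the choice of genes fixes for WSD arrays, and nothing is read from that. The 3 WSD+T arrays had myeloid sums above all control arrays, and there HAS2 and TNFAIP6 overlapped with control while AREG and the brightest RUNX1 probe set lay wholly above it. Within groups, the deviations from the group mean correlated with the myeloid score (the mean centred log2 value of its markers) with r = -0.02 for HAS2, 0.52 for TNFAIP6, 0.26 for AREG and -0.79 for RUNX1. Exact permutation within groups, two-sided and adjusted over the 4 genes, gave p = 0.986, 0.435, 0.796 and 0.435 for these. Spearman's rho was 0.10, 0.72, 0.45 and -0.63 (adjusted p = 0.824, 0.278, 0.346 and 0.346 by the same exact test). Without WSD replicates 2 and 3, the arrays farthest out in myeloid score, r was 0.54, 0.71, 0.38 and -0.23, so the negative value for RUNX1 rested on those arrays. Markers of other kinds were called between groups. Of all tested probe sets, 1.97% were called in WSD+T vs control, 14.5% in WSD vs control and 2.99% in WSD+T vs WSD. Of 9 proliferation markers, 6 were called in WSD+T vs control and 7 in WSD vs control, all with medians below control. Of 9 granulosa cell markers 2 and 3 were called. INHA and INHBB had medians below control in both comparisons, and INHBA, called only in WSD vs control, had a median above it. Of 5 tested theca and stroma markers, LUM and CYP17A1 were called in WSD vs control and LUM in WSD+T vs WSD. Among 8 tested oocyte markers, ZP4 was called in WSD vs control and FIGLA in WSD+T vs control, both with medians above control. The theca and stroma score separated all groups, at 0.064 to 0.28 in WSD+T, -0.86 to -0.20 in WSD and 0.40 to 0.53 in control. By summed signal of these markers the groups overlapped, at 7352 to 8703 in WSD+T, 4969 to 8375 in WSD and 7711 to 8333 in control. In the granulosa score, control (0.48 to 0.91) also lay wholly above WSD+T (-0.60 to -0.40) and WSD (-0.91 to 0.19). The proliferation score gave the same order (0.56 to 0.97, against -0.47 to -0.21 and -0.54 to -0.18). In the oocyte score, WSD+T (0.30 to 0.57) lay wholly above control (-0.95 to 0.058). The part of all these markers in the results for the 4 genes was not tested.

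**Figure D3:**
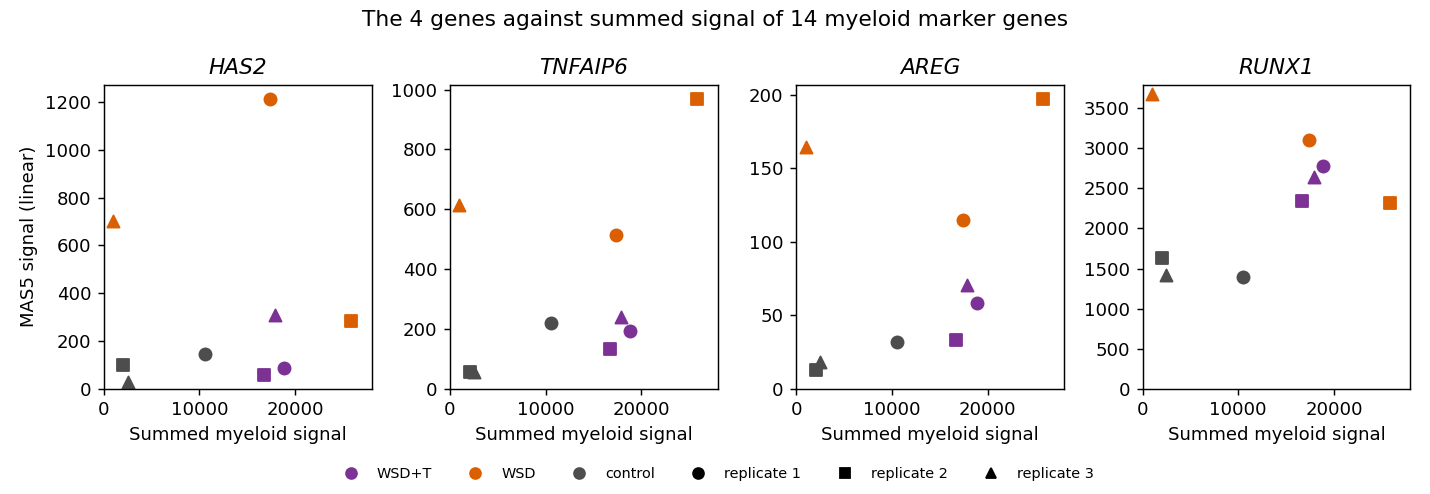
MAS5 signal (linear axis from 0) of each gene against the summed signal of 14 myeloid marker genes on the same array; colour gives the group and marker shape the replicate number. The WSD arrays span the whole range of myeloid sums, 982 to 25824, and the WSD+T arrays lie close together at 16700.4 to 18853.

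The arrays of a group were then compared with each other, which does not use the group differences that chose the genes. TNFAIP6 and AREG deviated together from their group means: r = 0.86 and Spearman's rho = 0.85 over 9 arrays (exact permutation within groups, two-sided, p = 0.00463 for both, the smallest that 216 arrangements can give, and 0.0278 adjusted over the 6 pairs of genes). In WSD+T, both genes were highest on replicate 3 and lowest on replicate 2. In WSD both were highest on replicate 2 and lowest on replicate 1, and in control both were highest on replicate 1 and lowest on replicate 2. Without control replicate 1 and WSD replicate 2, the arrays farthest from the median for TNFAIP6, r was 0.84, and with the dimmer TNFAIP6 probe set it was 0.89. Of the other 26380 probe sets, 0.94% had a within-group correlation with TNFAIP6 at least as high.

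The remaining 5 pairs did not pass the test. Their r ran from -0.36 for TNFAIP6 with RUNX1 to 0.49 for HAS2 with RUNX1, and their rho from -0.37 to 0.37 (exact permutation, p adjusted over the pairs 0.676 to 0.704 for r and 0.722 for rho). Within WSD, HAS2 was lowest on replicate 2, the array on which TNFAIP6 was highest. Leaving out the arrays farthest from the median changed the sign of r for TNFAIP6 with RUNX1, to 0.23 without control replicate 1 and WSD replicate 2. For HAS2 with RUNX1 it brought r to 0.11 without control replicate 3 and WSD replicate 2.

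**Figure D4:**
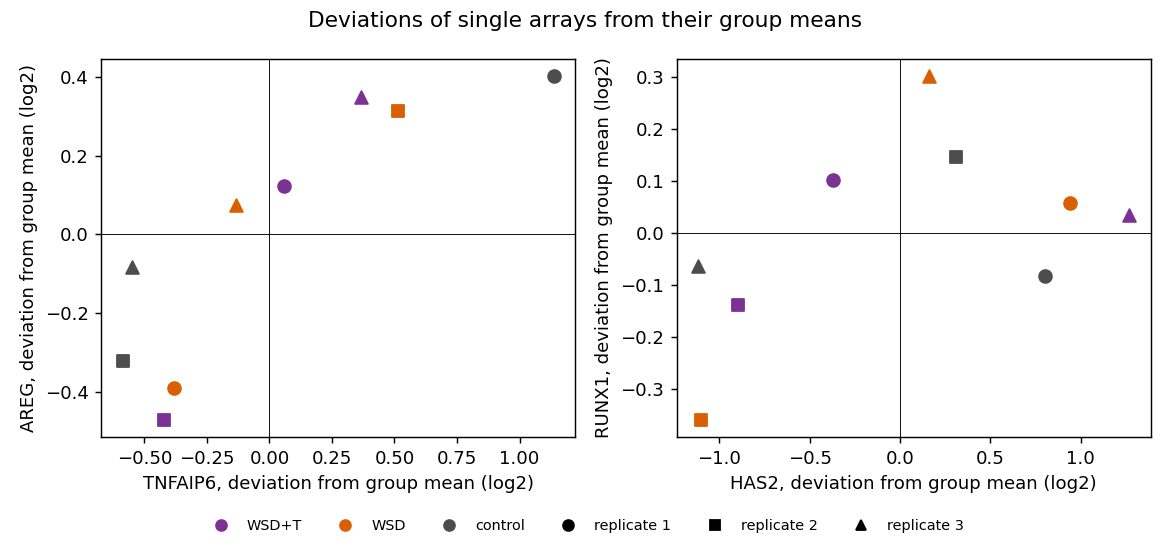
Deviation of each array from its group mean (log2 of signal plus 16) for AREG against TNFAIP6 and for RUNX1 against HAS2; colour gives the group and marker shape the replicate number. TNFAIP6 and AREG deviate together (r = 0.86), and the other pair is more scattered (r = 0.49).

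The rest of the pathway was read from 5 lists holding 77 gene symbols, of which 55 were named on the array and 45 passed the filter, each by its brightest probe set. KIAA1199 and TMEM2, older symbols of CEMIP and CEMIP2, were counted among the 77 but not the 55. In WSD vs control 5 of the tested genes rose and 4 fell, 9 of 45 against 14.5% of all tested probe sets, with a median of 0.15 against -0.08 over all probe sets. None passed limma in WSD+T vs control, where 9 had an unadjusted p under 0.05, and 1 rose and 1 fell in WSD+T vs WSD. The annotation used here named no probe set for EREG, PTGS2, LHCGR, GDF9 or ADAM17, which are not analysed here.

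Among EGF-like ligands, shedding enzymes and receptors, 11 genes were tested, and 1 rose and 1 fell in WSD vs control. EGFR, the receptor on which AREG acts, read 25.2, 27.9 and 23.7 in WSD+T, 16.7, 7.39 and 18.7 in WSD, and 73.8, 88.9 and 49.5 in control, so both diet groups lay wholly below control. It fell in WSD vs control (log2 difference -1.51, SE 0.21, limma's adjusted p = 0.00544), and passed under all 20 other settings tried (adjusted p 0.00519 to 0.0406). Its WSD signals were all under 21.2, and the size of the fall ranged from -2.29 with a pseudocount of 1 to -0.78 with a pseudocount of 64. EGFR passed the filter only through its control arrays, so lower values in the diet groups were built into its inclusion. With no filter, limma's adjusted p for WSD vs control was 0.00712. Against control, WSD+T gave -1.04 (adjusted p = 0.0501). SPRY2, a feedback inhibitor of receptor tyrosine kinase signalling, averaged 623 ± 53.6 in WSD+T, 984 ± 71.4 in WSD and 512 ± 197 in control, and rose in WSD vs control (1.00, adjusted p = 0.0420). That call held in only 2 of the 9 fits without 1 array, those without control replicate 1 or 3 (highest adjusted p 0.0840, without WSD replicate 2). The related ligand BTC averaged 201 ± 147 in WSD+T, 388 ± 296 in WSD and 385 ± 89.1 in control and was not called.

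In the hyaluronan matrix list, with 15 genes tested, 1 gene rose and 3 fell in WSD vs control. The synthase HAS3 read 1455, 1586 and 1483 in WSD+T, 908, 976 and 1032 in WSD, and 1393, 1427 and 1549 in control. WSD thus lay wholly below both other groups, opposite in direction to HAS2. HAS3 fell in WSD vs control (-0.58, SE 0.12, adjusted p = 0.0191) and rose in WSD+T vs WSD (0.63, SE 0.12, adjusted p = 0.0398). Its 1 other tested probe set had the same signs but was called in neither comparison. Under median centring neither call held (adjusted p = 0.0564 and 0.108). The first call did not hold without WSD replicate 1, control replicate 2 or control replicate 3 (adjusted p = 0.0543, 0.0531 and 0.0550), and the second held only without WSD replicate 2 or 3 (highest adjusted p 0.167, without WSD+T replicate 2). HAS1, the remaining synthase, was under the filter, with signals of 9.49, 1.98 and 1.58 in WSD+T, 21.2, 17.9 and 10.3 in WSD, and 2.60, 2.61 and 2.02 in control.

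ITIH4, of the family of inter-alpha-trypsin inhibitor heavy chains, fell in WSD vs control (-0.96, SE 0.17, adjusted p = 0.0102), with means of 32.9 ± 7.17 in WSD+T, 17.2 ± 4.63 in WSD and 48.3 ± 4.97 in control, and passed without any single array. The 1 other tested ITIH4 probe set had the same sign there but was not called. The hyaluronidase HYAL2 averaged 127 ± 22.6 in WSD+T, 77.0 ± 20.1 in WSD and 142 ± 15.3 in control (-0.78 in WSD vs control, adjusted p = 0.0296), and passed without 1 array only when that was WSD+T replicate 2 or WSD replicate 3 (highest adjusted p 0.0850, without WSD replicate 1). CEMIP2 rose in WSD vs control (1.11, adjusted p = 0.0303), at 392 ± 104 in WSD+T, 564 ± 176 in WSD and 245 ± 34.9 in control. It did not pass without WSD+T replicate 3, WSD replicate 2 or any 1 control array (highest adjusted p 0.0955, without control replicate 2).

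PTX3, which crosslinks the hyaluronan matrix together with TSG-6, read 555, 339 and 568 in WSD+T, 882, 1314 and 684 in WSD, and 593, 40.4 and 126 in control. WSD lay wholly above control, but the difference missed the threshold (2.47, SE 0.73, adjusted p = 0.0547). CD44, a hyaluronan receptor carried by many leukocytes, averaged 794 ± 126 in WSD+T, 1222 ± 861 in WSD and 249 ± 273 in control (adjusted p = 0.0646 in WSD vs control), and in WSD it was lowest on replicate 3, the array with the lowest myeloid sum. The proteoglycan VCAN, a hyaluronan-binding matrix component, averaged 3200.0 ± 87.7 in WSD+T, 3120.4 ± 496 in WSD and 3855 ± 288 in control, and was not called on this probe set. Its 4 other tested probe sets had the same sign against control, and 1 of them was called in WSD+T vs control and 1 in WSD vs control, both lower than control.

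Of the 14 tested LH-induced genes 3 rose and none fell in WSD vs control, namely CTSL, LIF and NRIP1. CTSL, a lysosomal protease, averaged 2032 ± 238 in WSD+T, 2958 ± 779 in WSD and 1124 ± 501 in control (1.44, SE 0.31, adjusted p = 0.0202). It missed the threshold without WSD replicate 1, control replicate 2 or control replicate 3 (adjusted p = 0.0568, 0.0669 and 0.0606). The cytokine LIF averaged 125 ± 60.6 in WSD+T, 166 ± 64.8 in WSD and 41.3 ± 26.9 in control (1.74, adjusted p = 0.0376), and NRIP1, a nuclear receptor coregulator needed for ovulation in mice, 1738 ± 10.1 in WSD+T, 2222 ± 142 in WSD and 1563 ± 191 in control (0.51, adjusted p = 0.0388). Both other tested NRIP1 probe sets were called in the same direction. LIF missed the threshold without WSD+T replicate 1, WSD replicate 1 or 2, or control replicate 1 or 2 (highest adjusted p 0.106, without WSD replicate 1). NRIP1 passed without 1 array only when that was control replicate 3 (highest adjusted p 0.117, without control replicate 2).

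ADAMTS4, a protease that cleaves VCAN, read 576, 375 and 654 in WSD+T, 1477, 2218 and 1336 in WSD, and 1168, 536 and 579 in control. It fell in WSD+T vs WSD (-1.62, SE 0.34, adjusted p = 0.0463), a call that held without 1 array only for WSD replicate 3 or control replicate 1 (highest adjusted p 0.180, without WSD+T replicate 2). ADAMTS1 averaged 394 ± 14.1 in WSD+T, 182 ± 88.6 in WSD and 380.3 ± 263 in control and was not called. The progesterone receptor PGR, a central LH-induced regulator, was dim, at 34.2 ± 15.8 in WSD+T, 49.3 ± 8.83 in WSD and 37.5 ± 0.171 in control, and was not called (adjusted p = 0.410 in WSD vs control).

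None of the 4 tested genes of the RUNX list passed limma in any comparison, with 1 or 2 at an unadjusted p under 0.05 in each. CBFB, the partner of RUNX1, averaged 2784 ± 136 in WSD+T, 3005 ± 642 in WSD and 2898 ± 178 in control (0.03 in WSD vs control, adjusted p = 0.917). RUNX2, a second LH-induced member of the family, averaged 1302 ± 57.3 in WSD+T, 1268 ± 263 in WSD and 843 ± 121 in control, with log2 differences of 0.63 in WSD+T vs control (adjusted p = 0.116) and 0.57 in WSD vs control (adjusted p = 0.0666). Of the 2 other tested RUNX2 probe sets, 2 had the same sign in WSD+T vs control and 1 in WSD vs control. RUNX3 was under the filter, averaging 6.68 ± 5.05 in WSD+T, 12.6 ± 3.63 in WSD and 4.61 ± 4.03 in control. Of the oocyte-secreted factors that permit cumulus expansion, only BMP15 was named on the array, at 30.3 ± 5.80 in WSD+T, 21.6 ± 17.4 in WSD and 20.2 ± 13.4 in control, with no call.

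**Figure D5:**
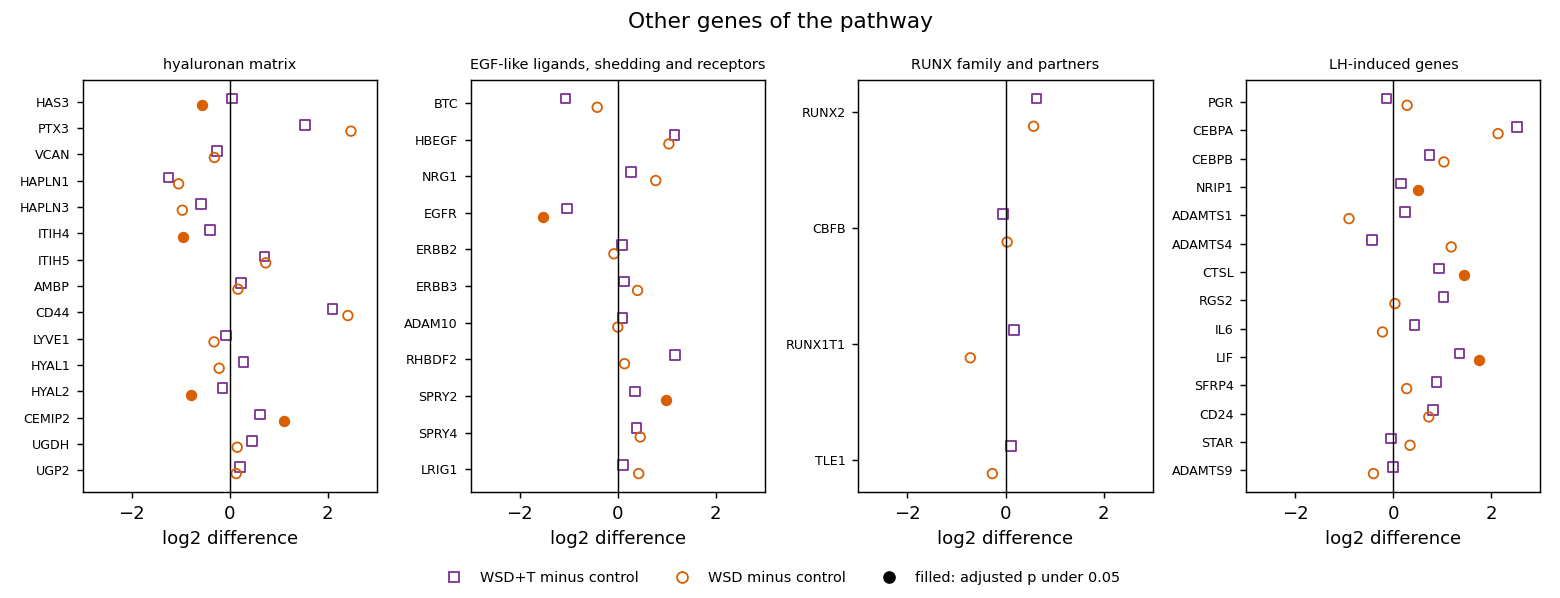
Log2 difference (log2 of signal plus 16) of the tested genes in 4 of the lists, squares for WSD+T minus control and circles for WSD minus control; filled symbols passed limma at an adjusted p of 0.05. EGFR, ITIH4, HAS3 and HYAL2 are filled to the left in WSD minus control, and no square is filled.

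The genes with the most similar profile over the 9 arrays differed for each of the 4, and since the profiles include the group differences this is a description only. For HAS2 they were TENT5A (Pearson r = 0.98), KBTBD2 (0.95), MARCHF7 (0.95), CHAC1 (0.95), a glutathione-degrading enzyme, and PSMD9 (0.94). For TNFAIP6 they were CAB39 (0.99), EMP1 (0.99), BNIP2 (0.98), the tubulin TUBB3 (0.98) and VAMP7 (0.98). For AREG they were TMEM127 (0.99), CDK2AP1 (0.99), TMLHE (0.99), LRRC8C (0.99) and the cullin CUL2 (0.99). For RUNX1 they were the ubiquitin ligase subunit FBXO32 (0.97), KIF9 (0.96), TSPYL2 (0.96), the Wnt pathway modulator DACT1 (0.96) and the receptor tyrosine kinase AXL (0.96). No gene was on the list of more than 1 member.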

How the data were processed

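The authors deposited 1 linear intensity per probe set and array. These came from MAS5 per the submitters' processing notes, without a stated version or settings. Per the labels' protocols, RNA was amplified by a NuGEN 3' method and 1 biotin-labelled sample was hybridised per array. The genome build is not given in the sources used here, detection calls were not used here, and the number of arrays limits the precision. Symbols came from the array's annotation, and all 4 had the same symbol under their Entrez ID in a RefSeq table. No sequences were used.

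After 99 control probe sets were left out, log2(signal + 16) was analysed, which understates changes of dim genes. Probe sets with a mean below the median (a signal of 21.2) were filtered out, leaving 26383. Group means were estimated with limma 3.58.1 (R 4.3.3) in 1 linear model of the 9 arrays, and p-values were adjusted by Benjamini-Hochberg over all tested probe sets for each comparison (threshold 0.05). Figures used matplotlib 3.10.9. The method was also run on simulated data with the same spread in all groups. The spread differed between the groups of these data, so that run does not bear on the effect of unequal spread.

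The 4 genes and all lists were chosen with earlier results of these data known. Named genes were the 4, up to 4 called genes per list and comparison, a fixed set whatever their values (among them EGFR, PTX3, VCAN, CD44, PGR, ADAMTS1 and HAS3), and the 5 genes most like each of the 4. BTC was added after its values were seen. Alternatives covered the pseudocount, filter, scaling, samples, spread, replicate number and single arrays. The replicate numbers showed no clear pairing of samples (correlations of deviations -0.30 to 0.19), but so few arrays cannot exclude it.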

Additional observations from a re-analysis of the deposited data

How the results depend on the processing

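On the brightest probe sets, WSD minus control ran from 2.24 to 3.35 for HAS2 and 2.22 to 3.27 for TNFAIP6 over the 20 alternatives. It ran from 1.39 to 2.94 for AREG and 0.85 to 1.18 for RUNX1. The genes were chosen for this difference, and their WSD and control arrays did not overlap. Its sign could thus not turn when an array was left out or the pseudocount changed, and nothing is read from it. The number of probe sets called varied between alternatives. In WSD vs control it was 3817 (66.9% lower; 56.8%, 52.0% and 50.3% lower under quantile normalization, median centring and cyclic loess), 1756 to 6605 without 1 array, 859 with only the 6 arrays compared, 1367 with array weights per group, 2220 with a replicate block and 2537 with WSD+T replicates 1 and 3 averaged. For WSD+T vs control the number was 520, and 0 to 1770, 3265 (44.0% lower against 72.5%), 3267, 3 and 0 in the same order (5066 had an unadjusted p under 0.05 in limma before any change). In WSD+T vs WSD it was 789 (31.7% lower; 51.6%, 64.9% and 57.0% under the 3 scalings), and 0 to 1551, 9, 186, 1 and 0 (5523 at an unadjusted p under 0.05).

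Of the 4 genes, none was called in WSD+T vs control, and 0 to 1 without 1 array. RUNX1 made it 1 with a pseudocount of 64, cyclic loess, the 6 arrays, array weights or an intensity trend in the prior. In WSD+T vs WSD it was 1 (AREG), 0 to 1 without 1 array, 2 with a pseudocount of 64, and 0 with a pseudocount of 1, no filter, the 6 arrays, array weights, the replicate block or averaged replicates. Of the pathway genes, 9 were called in WSD vs control, 2 to 12 without 1 array, 2 with the 6 arrays, 1 with array weights, 5 with the replicate block, 5 with averaged replicates and 14 with an intensity trend. The number for WSD+T vs control was 0, 0 to 2 without 1 array, 4 with the 6 arrays, 6 with array weights and 1 under median centring. That for WSD+T vs WSD was 2, 0 to 3 without 1 array, 1 with a pseudocount of 1, no filter or any of the 3 scalings, and 0 with the 6 arrays, array weights, the replicate block or averaged replicates. The labels do not say that replicate numbers link arrays across groups, and these few arrays cannot settle it. If the numbers link nothing, the block only spends degrees of freedom.

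Signs that turned were those of HAS2 in WSD+T vs control, -0.089 and -0.12 on its probe sets without WSD+T replicate 3 and -0.013 and -0.075 without control replicate 3 (-0.089 to 0.99 and -0.12 to 0.44 over all fits without 1 array), and RUNX1 MmugDNA.30561.1.S1_at in WSD+T vs WSD, 0.093 without WSD replicate 1 (-0.60 to 0.093). The within-group correlation of TNFAIP6 with AREG was 0.83 to 0.89 under 2 pseudocounts and 3 scalings, each with an adjusted p of 0.0278. Without 1 array it was 0.83 to 0.92, where too few arrangements remain for the adjusted p to pass. By exact permutation the adjusted p was 0.0833 to 0.25 there, so the correlation was not the most extreme arrangement in every fit. These alternatives were chosen after the data were seen. The causes of the changes were not tested. Dim signals limit AREG, EGFR, ITIH4 and most RUNX1 probe sets, whose fold changes depend on the pseudocount.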
